A study of Mus musculus with 4 samples.

Results

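The cytochrome P450 enzymes of families 1 to 3 are described here as PRO-seq saw them in the livers of 14-day-old WT and *Hdac3* KO mice. Members were all gene symbols made of *Cyp*, a family number from 1 to 3, a subfamily letter and a gene number, with the transcript that had the most promoter-proximal reads kept for each symbol. This gave 58 genes among the 20642 symbols listed. Of these, 36 were transcriptionally active and were tested, as were 12705 genes in all, and 22 were not.

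PRO-seq (precision nuclear run-on sequencing) lets the polymerases engaged in isolated nuclei add biotin-labelled nucleotides and sequences the labelled RNA, so it reports transcription in progress rather than RNA content. WT mice were *Alb-Cre*+ *Hdac3*+/+ and KO mice were *Alb-Cre*+ with *Hdac3* fl/- or fl/fl, so both groups carried the albumin promoter-driven Cre. Both came from a cross of C57BL/6 mice carrying the *Hdac3* alleles with *Alb-Cre* transgenic mice. Whole livers were taken at day 14 (P14), and each of the 2 WT libraries (WT1, WT2) and 2 KO libraries (KO1, KO2) was made from an equal number of nuclei pooled from several mice, which hides differences between mice. Cre driven by the albumin promoter acts in hepatocytes, whereas the nuclei came from all cells of the liver. Normalized gene body reads of *Hdac3* itself were 665 and 648 in WT and 609 and 582 in KO, which did not pass the test (log2 fold change -0.14, adjusted p = 0.413, limma with Benjamini-Hochberg adjustment). Reads summed over a gene body in nuclei of all liver cells cannot decide whether the allele was deleted, so the genotypes rest on the labels.

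P450 enzymes of these families sit in the endoplasmic reticulum, take electrons from the reductase POR and use a heme group to oxidize drugs, toxins, steroids, bile acids and fatty acids. Their genes lie in clusters of close copies that arose by repeated duplication, and many are switched by ligand-activated factors (AHR for *Cyp1a*, CAR for *Cyp2b*, PXR for *Cyp3a*). In mouse liver, levels of many members change after birth and come to differ between the sexes and between the zones around the central and portal veins.

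Each transcript has a promoter-proximal value, the reads in the richest 50 bp window within 500 bp of its start, and a gene body value, the reads from 1 kb downstream of the start to the termination site. Both are read counts multiplied by 1 factor per library. The reads behind them numbered from 16628518 to 26190040 per library. A gene counted as active when it had promoter-proximal reads and its gene body reads averaged above 4 per kb. It was called up or down when the log2 fold change of KO over WT lay beyond 0.6 in size with an adjusted p below 0.05. With 2 libraries against 2, an exact permutation of libraries cannot reach a two-sided p under 0.33, so each library's value is given with the test, always in the order WT1, WT2, KO1, KO2.

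The promoters of several members show how close the copies are. They were read from RefSeq on GRCm38.p6, the assembly that mm10 is built on, and 50 of the 58 members had an entry. *Cyp2b9* and *Cyp2b13* are shown because their gene bodies moved so unlike each other although their promoters are nearly the same. The 250 bases before each start, 5′ to 3′ on the strand of the gene, differ at 2 positions, marked by capitals, and the nearer of these lies 147 bases before the start.
Cyp2b9 (chr7:26173159-26173408, plus strand): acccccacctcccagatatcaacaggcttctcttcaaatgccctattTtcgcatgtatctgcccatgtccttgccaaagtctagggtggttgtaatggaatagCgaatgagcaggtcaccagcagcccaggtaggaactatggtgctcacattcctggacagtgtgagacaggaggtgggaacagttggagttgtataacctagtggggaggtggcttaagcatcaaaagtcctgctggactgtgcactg
Cyp2b13 (chr7:26061245-26061494, plus strand): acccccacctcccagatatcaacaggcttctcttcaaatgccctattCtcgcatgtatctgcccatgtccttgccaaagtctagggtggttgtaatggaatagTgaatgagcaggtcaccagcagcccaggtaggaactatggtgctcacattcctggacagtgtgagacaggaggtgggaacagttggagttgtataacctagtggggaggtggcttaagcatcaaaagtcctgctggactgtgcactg
The RefSeq gene intervals given below for these genes begin 59 bp before this start for *Cyp2b9* and 107 bp before it for *Cyp2b13*. Of the 30-base stretches in the 300 bases around the start, 77.9% of each gene's occur in the other's. The authors dropped reads with mapping quality under 10. How many reads from such stretches were lost, and how any others were divided between the copies, was not tested. The promoter-proximal values of both genes are therefore uncertain.

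*Cyp3a11*, *Cyp3a44* and *Cyp3a16* are shown because neighbours in one cluster changed in opposite directions. Capitals mark matches to AGGTCA or, on the opposite strand, to AGTTCA (half-sites of nuclear receptors such as PXR, CAR and HNF4A) and to TATAAA.
Cyp3a11 (chr5:145879855-145880104, minus strand): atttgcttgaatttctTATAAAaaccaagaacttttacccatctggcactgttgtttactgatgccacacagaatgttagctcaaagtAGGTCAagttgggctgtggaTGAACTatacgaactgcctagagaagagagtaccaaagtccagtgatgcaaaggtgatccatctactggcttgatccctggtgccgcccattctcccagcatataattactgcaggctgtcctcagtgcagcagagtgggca
Cyp3a44 (chr5:145805875-145806124, minus strand): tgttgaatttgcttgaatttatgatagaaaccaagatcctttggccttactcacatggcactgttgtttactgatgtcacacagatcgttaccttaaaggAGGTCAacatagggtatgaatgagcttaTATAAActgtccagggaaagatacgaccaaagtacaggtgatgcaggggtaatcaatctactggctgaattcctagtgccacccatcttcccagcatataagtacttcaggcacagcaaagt
Cyp3a16 (chr5:145469724-145469973, minus strand): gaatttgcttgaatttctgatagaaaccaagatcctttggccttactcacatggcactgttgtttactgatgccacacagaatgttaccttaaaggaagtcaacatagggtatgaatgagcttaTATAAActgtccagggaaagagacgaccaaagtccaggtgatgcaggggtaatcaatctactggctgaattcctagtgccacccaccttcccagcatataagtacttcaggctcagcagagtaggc
*Cyp3a16* and *Cyp3a44* were 95.9% identical over the 300 bases around the start (gaps left out), and *Cyp3a11* and *Cyp3a16* were 82.2% identical. The AGGTCA match began 162 bases before the start of *Cyp3a11* and 150 bases before that of *Cyp3a44*, and none was found in the *Cyp3a16* window. These are matches of letters and say nothing of binding.

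Of the 36 active members, 32 had a RefSeq promoter, and both strands of its 300 bases (250 before and 50 after the start) were searched for 6 motifs. TATAAA, the letters at the core of many TATA boxes, was found in 19 (59.4%), against 14.2% of the promoters of 27025 symbols. The match began within 50 bases before the start in 12 (37.5%, against 3.94%). In the other 7 it lay elsewhere, at -234 in *Cyp3a11*, -126 in *Cyp3a16*, -122 in *Cyp3a44*, -128 in *Cyp2j5* and -91 in *Cyp2d40*, and after the start in *Cyp2c69* (11) and *Cyp2c40* (41), counting bases from the start to the leftmost letter. AGGTCA was found in 12 (37.5%, against 16.0%), AGTTCA in 4 (12.5%, against 14.0%), and GTTAAT, a half-site of HNF1, in 5 (15.6%, against 7.20%). The AHR core GCGTG was found in 4 (12.5%, against 32.5%), and the STAT motif TTCNNNGAA in 0 (against 8.47%). No matches overlapped. Anywhere in the window, TATAAA was in 3 of the 5 members with a promoter that were called up in the gene body, in 9 of 13 called down and in 7 of 14 not called. These counts take close copies one by one, such as *Cyp3a16* and *Cyp3a44*, so the members are not independent. The 27025 symbols were not limited to active genes.

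In WT liver the members were transcribed at very different rates. The density of gene body reads, which can be compared between genes because it is per kb, ranged from 3.11 per kb for *Cyp2d40* to 2615 per kb for *Cyp2e1*, the enzyme that oxidizes ethanol and acetaminophen. *Cyp2e1* ranked 12 among all active genes. The median was 68.0 reads per kb over active members and 37.7 over all active genes, and 23 of the 36 members lay above the latter. *Cyp2d26* (722 per kb), *Cyp2c70* (557), *Cyp3a25* (460) and *Cyp2b9* (414) followed *Cyp2e1*.

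**Figure D1:**
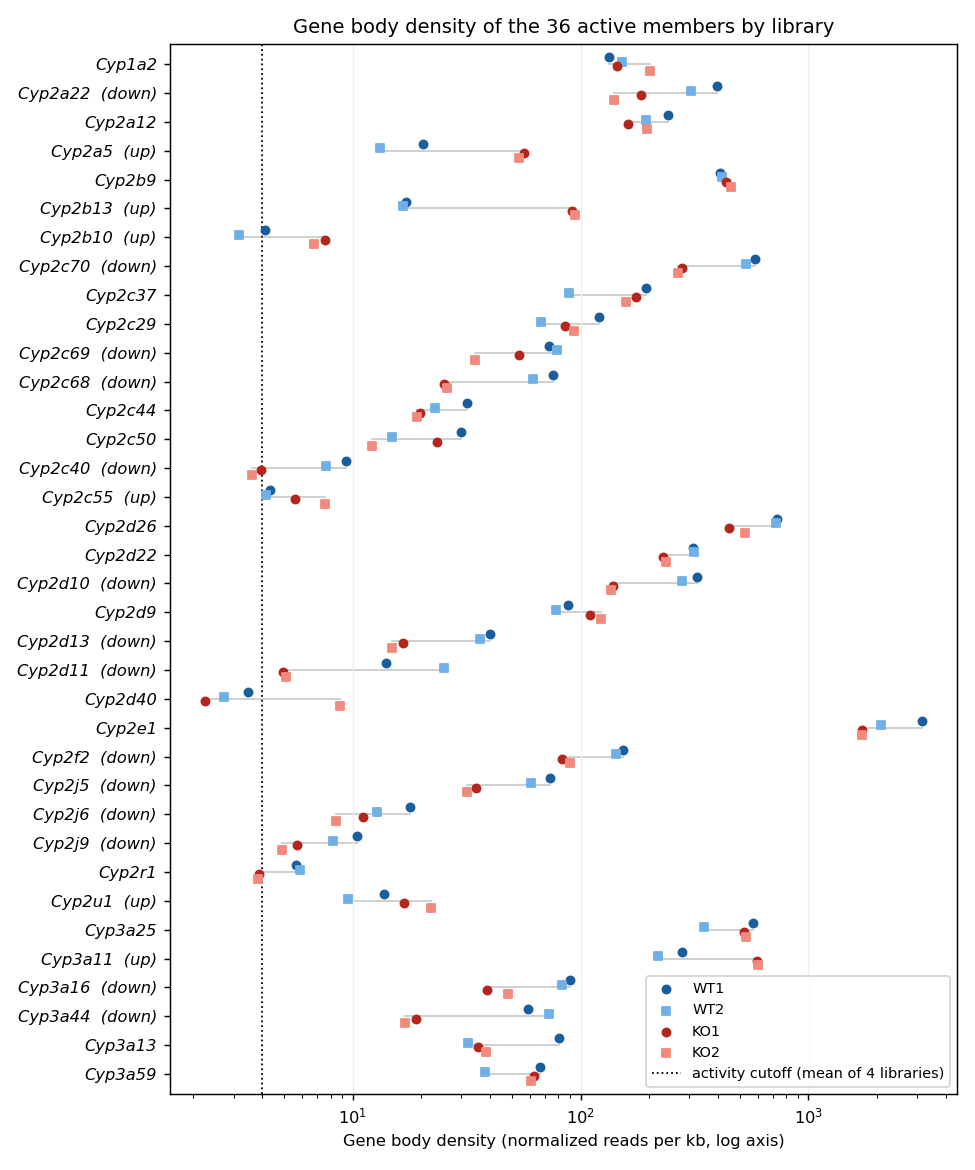
Gene body density of the 36 active members (normalized reads per kb, log axis), 1 row per gene by subfamily, with blue symbols for the 2 WT and red symbols for the 2 KO libraries and the call in brackets. *Cyp2e1* has the highest density, *Cyp2b13*, *Cyp2a5* and *Cyp3a11* have both KO libraries far to the right of both WT libraries, and *Cyp3a44* and *Cyp2c68* have them far to the left.

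In the gene body, 6 of the 36 active members were called up and 14 down, while 16 were not called. Over all active genes, 10.4% were called up and 11.4% down. The median log2 fold change was -0.46 over members and -0.09 over all active genes, and the members' median was -0.25 without WT1 and -0.64 without WT2. Both KO libraries lay outside the WT range for all 20 called members. Counting uncalled ones too, the groups did not overlap for 8 members that were higher and 19 that were lower in KO, against 27.6% and 42.8% of all active genes. Of the 27 members with an unadjusted p under 0.05, 5 passed the adjusted p but not the size: *Cyp2c44* (-0.47), *Cyp2d22* (-0.42), *Cyp2d26* (-0.57), *Cyp2e1* (-0.57) and *Cyp2d9* (0.48).

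*Cyp2b13* rose most among the members. Its normalized gene body reads (whole gene at chr7:26061388-26096197) were 577 and 562 in WT and 3084 and 3175 in KO. The groups were far apart and the libraries within each nearly equal, a 5.49-fold rise (log2 fold change 2.46, SE 0.11, adjusted p = 6.1e-13, limma with Benjamini-Hochberg adjustment). *Cyp2b9* (chr7:26173350-26210661), which lies downstream of it on the same strand, had 14884 and 15101 in WT and 15820 and 16577 in KO. These KO values were above the WT values by little, and the change did not pass the test (0.11, SE 0.11, adjusted p = 0.462). Both genes are known for being higher in adult females than in males. *Cyp2b13* thus made up 3.96% and 3.82% of the summed *Cyp2b* gene body density in the WT libraries and 17.1% and 16.9% in the KO libraries. Over the longest open reading frame the genes were 92.7% identical.

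*Cyp2b10*, the classic target of CAR, also rose. Its gene body reads were 115 and 89 in WT and 211 and 190 in KO. Both KO libraries were above both WT libraries (log2 fold change 0.98, SE 0.20, adjusted p = 0.000351, limma), but the level stayed low, at 7.17 reads per kb in KO. Its WT mean of 3.64 per kb is under the cutoff for activity, so it was tested only because of its KO level. The remaining *Cyp2b* members, *Cyp2b19* and *Cyp2b23*, had no more than 2.29 gene body reads in any library.

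*Cyp2a5*, the coumarin 7-hydroxylase that also oxidizes nicotine, rose as well. Its gene body (whole gene at chr7:26835339-26843264) had 141 and 91 normalized reads in WT and 389 and 374 in KO. Both KO libraries stood far above both WT libraries, a 3.34-fold rise (log2 fold change 1.74, SE 0.19, adjusted p = 1.54e-07, limma). On the other strand of the same cluster, *Cyp2a22* had 2681 and 2067 reads in WT and 1242 and 950 in KO, a 2.17-fold fall (-1.11, SE 0.14, adjusted p = 6.44e-07). *Cyp2a12*, 97.0% identical to *Cyp2a22* over the open reading frame, overlapped between the groups and was not called (-0.28, adjusted p = 0.0925). *Cyp2a4*, whose promoter shares 30-base stretches with that of *Cyp2a5*, was not active and had 5.74 and 6 gene body reads in WT and 28.6 and 25.8 in KO. How reads were split between these copies was not tested.

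The *Cyp3a* cluster on chromosome 5 held changes in both directions. *Cyp3a11*, the mouse gene closest in role to human CYP3A4 and a main target of PXR, had 6752 and 5292 normalized gene body reads in WT and 14358 and 14594 in KO. The groups did not overlap, and the rise was 2.42-fold (log2 fold change 1.28, SE 0.12, adjusted p = 1.08e-08, limma). *Cyp3a44*, a copy higher in adult females, is the next gene downstream on that strand at a distance of 48.5 kb and had 1809 and 2244 in WT and 584 and 524 in KO. This was the largest fall among the members, 3.64-fold (-1.86, SE 0.13, adjusted p = 1.37e-10), although the open reading frames of both genes were 94.9% identical. *Cyp3a16*, a form of fetal and newborn liver, had 2908, 2690, 1258 and 1561 in the same order, a 2.0-fold fall (-0.997, SE 0.12, adjusted p = 4.48e-07).

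*Cyp3a25*, the most transcribed *Cyp3a* gene in WT, had 17949 and 10992 in WT and 16455 and 16675 in KO. The KO libraries lay between the WT libraries, and no change was called (0.24, SE 0.15, adjusted p = 0.232). *Cyp3a11* accounted for 24.3% and 27.4% of the summed *Cyp3a* density in WT and 46.5% and 46.3% in KO, and *Cyp3a44* for 5.10% and 9.13% in WT and 1.49% and 1.31% in KO. The share of the whole subfamily in the summed density of members was 13.6% and 12.1% in WT and 21.7% and 21.6% in KO. That sum was 8428 and 6571 reads per kb in WT and 5871 and 6022 in KO. The share thus rose in part because the sum was lower, and it does not measure *Cyp3a* transcription alone.

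**Figure D2:**
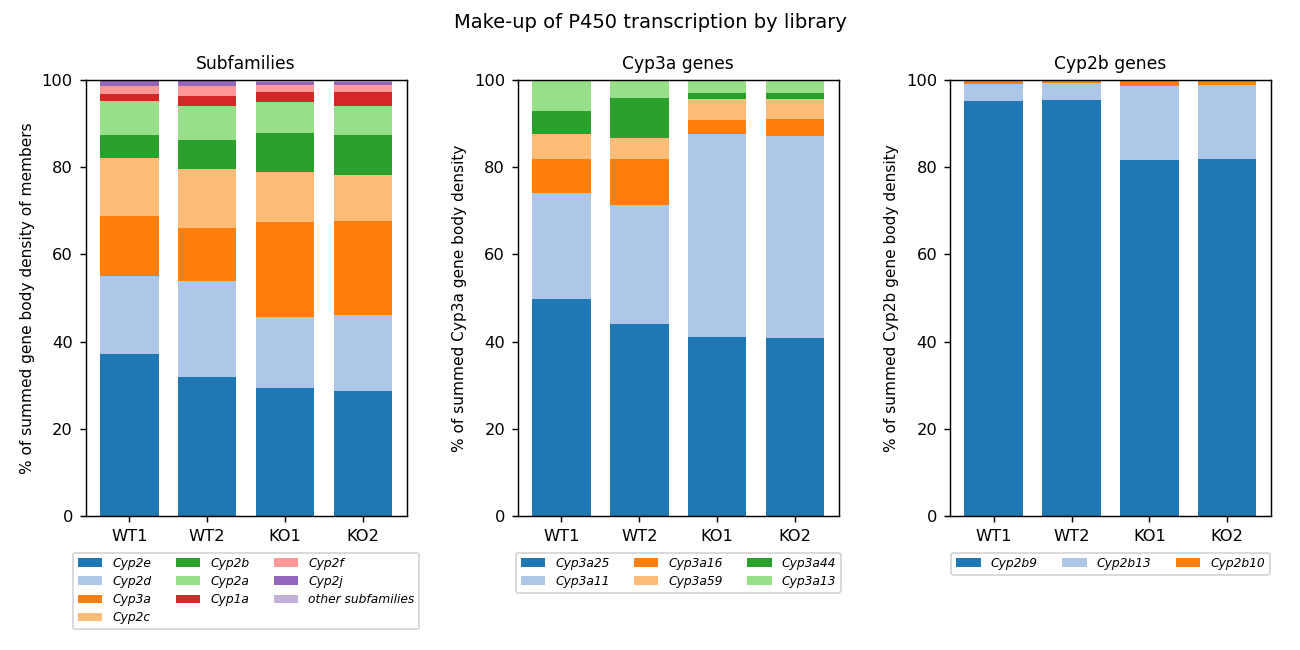
Stacked bars of the share (%) of summed gene body density in each library, for all members by subfamily on the left, for active *Cyp3a* genes in the middle and for active *Cyp2b* genes on the right. The *Cyp3a* share is 13.6% and 12.1% in WT against 21.7% and 21.6% in KO, of a sum over members that is lower in KO. *Cyp3a11* takes most of the gain in share, and *Cyp2b13* goes from 3.96% and 3.82% to 17.1% and 16.9% of *Cyp2b*.

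The *Cyp2c* genes on chromosome 19, which oxidize arachidonic acid, steroids and bile acids, gave 4 calls down and 1 up among 9 active members. *Cyp2c70*, which makes muricholic acids and so gives mouse bile its composition, had 19126 and 17544 normalized gene body reads in WT and 9155 and 8833 in KO. Both KO libraries were well below both WT libraries, a 2.04-fold fall (log2 fold change -1.03, SE 0.11, adjusted p = 1.06e-07, limma). It made up 51.4% and 60.0% of the *Cyp2c* density in WT and 41.4% and 42.9% in KO.

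In the same cluster, 3 genes with near-identical open reading frames fell. *Cyp2c68* had 3870 and 3182 in WT and 1295 and 1325 in KO (-1.42, SE 0.12, adjusted p = 1.42e-09, limma). *Cyp2c69* had 3124, 3414, 2319 and 1489 (-0.81, SE 0.14, adjusted p = 7.75e-05), and its KO libraries differed from each other more than those of *Cyp2c68*. *Cyp2c40*, an arachidonic acid hydroxylase, had 418, 343, 177 and 161 (-1.16, SE 0.17, adjusted p = 5.71e-06), and its KO mean of 3.78 per kb was under the activity cutoff. *Cyp2c40* was 98.1% identical to *Cyp2c68* and 97.9% to *Cyp2c69* over the open reading frame. That is a small part of their gene bodies, which span 43110 to 51266 bp, and identity over the rest was not measured. Whether the 3 genes share reads was not tested, so their calls are not counted as separate evidence. The related *Cyp2c67* was not active and had 154 and 157 in WT and 59.4 and 62.3 in KO.

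*Cyp2c55*, an arachidonic acid hydroxylase that drugs can induce, was just past the threshold on size. Its reads were 150 and 144 in WT and 194 and 263 in KO, so the groups did not overlap (log2 fold change 0.61, SE 0.19, adjusted p = 0.0116, limma). Leaving out WT2 or KO2, a pseudocount of 10 (0.59) or testing all genes without the activity filter ended this call. Its WT mean of 4.24 per kb was just above the activity cutoff, and with a cutoff of 10 it was not tested. *Cyp2c54*, inactive by the mean over libraries, had 179 and 100 in WT and 20.2 and 12.1 in KO, and *Cyp2c39*, also inactive, had 42.5, 64, 17.0 and 7.59. Both had their KO libraries below their WT libraries and were not tested.

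In the *Cyp2d* cluster on chromosome 15, the mouse relatives of human CYP2D6, 3 of 7 active members were called, each of them down. *Cyp2d26* had the highest density of the cluster, with 2275 and 2255 gene body reads in WT and 1413 and 1658 in KO. The groups were apart, but the change stayed within 0.6 (-0.57, SE 0.11, adjusted p = 0.000349, limma). *Cyp2d10* fell from 1082 and 930 in WT to 467 and 454 in KO (-1.12, SE 0.13, adjusted p = 3.11e-07).

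*Cyp2d13* fell from 172 and 155 to 71.1 and 63.8 (-1.27, SE 0.21, adjusted p = 3.78e-05). *Cyp2d11*, 94.7% identical to *Cyp2d10* and 8.82 kb downstream of it on the same strand, was also called down, at a mean under 50 reads (-1.85, adjusted p = 6.86e-05). By contrast *Cyp2d9*, the male-predominant testosterone 16-alpha-hydroxylase and 93.3% identical to *Cyp2d11*, had 305 and 269 in WT and 379 and 425 in KO and passed the test but not the size (0.48, adjusted p = 0.0144). *Cyp2d40* had fewer than 30 reads in each library, was tested only through its KO mean of 5.51 per kb, and overlapped between the groups.

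All 3 active genes of *Cyp2j*, a subfamily on chromosome 4 known for turning arachidonic acid into epoxides, fell in the gene body. *Cyp2j5* had 2630 and 2173 in WT and 1235 and 1131 in KO (log2 fold change -1.02, SE 0.12, adjusted p = 3.37e-07, limma). *Cyp2j9* had 229, 180, 125 and 108 (-0.80, SE 0.20, adjusted p = 0.00204), and *Cyp2j6* had 654, 466, 403 and 310 (-0.64, SE 0.17, adjusted p = 0.00351). The *Cyp2j6* call was the closest to the threshold on size among falls and was lost under 3 other scalings (13 members down in place of 14). Without WT1 the *Cyp2j6* call was lost, and without KO2 those of *Cyp2j6*, *Cyp2j9* and *Cyp2c69* were.

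Among subfamilies with 1 active member, the single naphthalene-oxidizing *Cyp2f2* fell, with 1955 and 1819 in WT and 1049 and 1137 in KO (log2 fold change -0.79, SE 0.11, adjusted p = 6.67e-06, limma). *Cyp2u1*, a hydroxylase of long-chain fatty acids, rose from 162 and 112 to 196 and 258 (0.74, SE 0.20, adjusted p = 0.00567), a call that was lost without WT2 or KO2. *Cyp2e1* had 31853 and 21207 in WT and 17522 and 17520 in KO. The KO libraries were below both WT libraries, which differed from each other, and the change passed the test without passing the size (-0.57, SE 0.15, adjusted p = 0.00292). Without WT2 it was called down (-0.86), and without WT1 it was -0.28 and no longer passed the test (adjusted p = 0.147). It did not pass by DESeq2 (adjusted p = 0.0994), with the other scalings, without the activity filter or without either KO library.

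*Cyp1a2*, the enzyme of caffeine and aromatic amines and a target of AHR, had 762 and 865 in WT and 826 and 1149 in KO. The groups overlapped and no change was called (0.26, SE 0.14, adjusted p = 0.152, limma). *Cyp2r1*, a 25-hydroxylase of vitamin D, had 66.5, 69, 45.6 and 45.5 and did not pass the test (-0.56, SE 0.26, adjusted p = 0.0927). Its KO mean of 3.86 per kb was under the activity cutoff.

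Among the 22 inactive members, 3 (*Cyp2b19*, *Cyp2t4* and *Cyp2w1*) had no read in any library and region. The other 19 had some, and 9 of them had 50 or more normalized reads summed over libraries and regions. *Cyp1a1*, the AHR target that toxins switch on, was among these, with 17.2 and 11 gene body reads in WT and 14.9 and 28.8 in KO. The highest value of any inactive member was 179, for *Cyp2c54* in WT1.

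At the promoter the picture was different from that of the average gene. Of the active members, 3 were called up (*Cyp2a5*, *Cyp2b13* and *Cyp2j9*) and 8 down, whereas 25.8% of all active genes were called up and 2.20% down. The median log2 fold change was -0.34 over members and 0.56 over all active genes, that is, 22 of 36 members lay below 0 while most genes lay above. A median below 0 was not particular to the members. Over the 24 active P450 genes of other families and names it was -0.29, with 3 called up and 5 down. In lists described below it was -0.61 for hepatocyte markers, -1.11 for periportal markers and -0.49 for liver factors. Stellate and endothelial markers had medians of 1.96 and 1.43. The sign of the members' median rested on WT1: it was 0.077 without that library (0.59 over all active genes) and -0.66 without WT2 (0.51). With the promoter-proximal values scaled so that the median of all genes was near 0 (median of ratios within the region), 1 member was called up and 14 down, and the members' median was -0.90. Without overlap between groups, 9 members were higher and 15 lower in KO, against 61.9% and 6.72% of all active genes. Leaving out 1 library gave 0 to 3 calls up and 1 to 3 calls down, with the fewest in both directions without KO2.

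*Cyp3a44* had the strongest fall at the promoter. Its normalized promoter-proximal reads were 174 and 181 in WT and 55.2 and 38.0 in KO (log2 fold change -1.93, SE 0.35, adjusted p = 4.01e-06, limma). *Cyp3a16* had 64.3, 106, 24.4 and 22.8 (-1.77, SE 0.39, adjusted p = 0.000151). In both genes the promoter thus fell with the gene body, and the *Cyp3a44* call was the only one of the 8 that remained under every alternative other than testing all genes without an activity filter.

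The other calls down with a fall in the gene body were *Cyp2a22* (94.1 and 83 reads in WT, 40.3 and 38.0 in KO), *Cyp2j5* (607 and 411, then 212 and 301), *Cyp2c68* (49.3 and 44, then 15.9 and 27.3), *Cyp2c70* (205 and 159, then 93.4 and 94.1) and *Cyp2d10* (1220 and 673, then 493 and 574). Their log2 fold changes ran from -1.16 for *Cyp2a22* to -0.77 for *Cyp2d10*. *Cyp3a59* was the exception, called down at the promoter (57.4 and 30 reads in WT, 14.9 and 16.7 in KO, -1.34, adjusted p = 0.00938, limma) but not in the gene body (0.29, adjusted p = 0.164). It is 97.5% identical to *Cyp3a25* over the open reading frame and shares 30-base stretches of its promoter with it.

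Members that rose in the gene body did not all rise at the promoter. *Cyp2b13* had 3.44 and 8 promoter-proximal reads in WT and 20.2 and 22.8 in KO (1.83, SE 0.47, adjusted p = 0.00153, limma), and *Cyp2a5* had 9.18, 5, 14.9 and 27.3 (1.44, SE 0.46, adjusted p = 0.0126). Both rest on few reads, and neither was called with the scaling within the region or by DESeq2. *Cyp3a11*, with a far higher promoter value, had 353 and 301 in WT and 370 and 425 in KO, so its promoter did not pass the test (0.28, SE 0.30, adjusted p = 0.464) and lay at -0.29 once the median of all genes was set near 0. For *Cyp2b10*, *Cyp2c55* and *Cyp2u1* no promoter change was called either, at log2 fold changes of -0.28, -0.50 and 0.79.

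**Figure D3:**
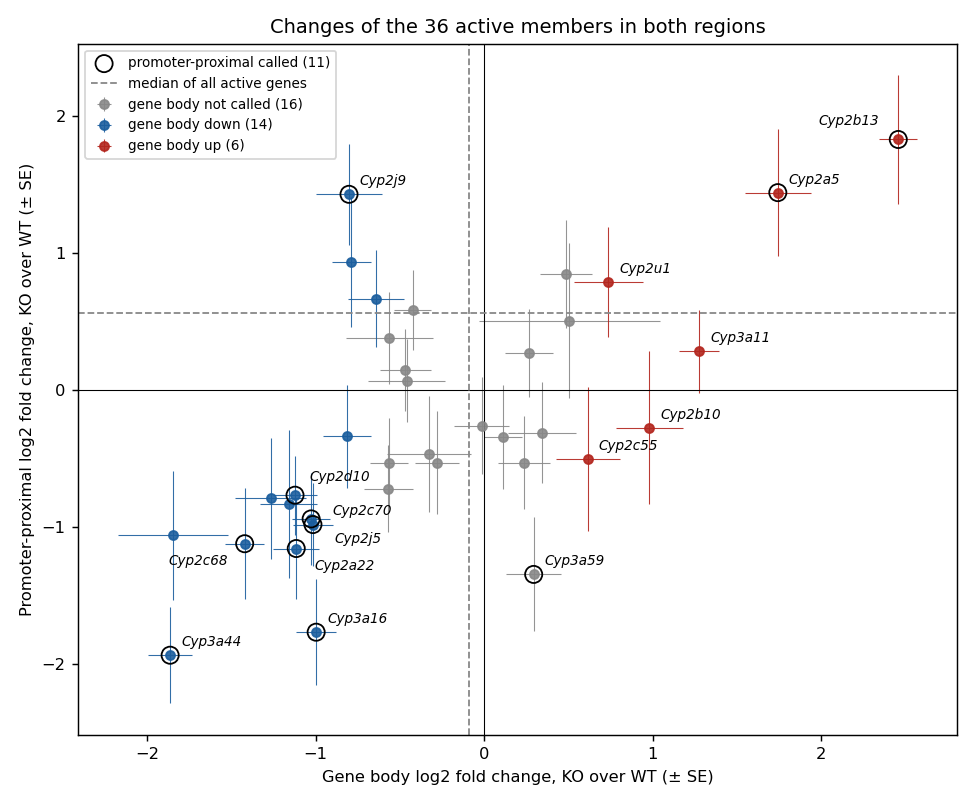
Log2 fold change (KO over WT, with SE) of the 36 active members in the gene body (x axis) and the promoter-proximal region (y axis), coloured by the gene body call, with rings on promoter calls and dashed lines at the medians of all active genes. Calls in both regions go the same way for 9 members, and *Cyp2j9* alone sits at upper left with a promoter rise of 1.43 and a gene body fall of -0.80.

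The pausing index divides the density in the promoter-proximal window by that in the gene body, and it was low in these genes. Its median over active members was 15.8 and 16.8 in WT and 12.5 and 18.1 in KO, and over all active genes 49.3, 44.3, 61.1 and 85.0. From 27 to 30 of the 36 members lay under the median of all genes in each library. *Cyp2r1* had the highest index of the members in every library, from 318 to 1031. Over all active genes the median log2 change of the index was 0.61, with 12.4% called up and 0.519% down, and over members it was 0.02, with 3 called up and 2 down.

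*Cyp2j9* was the clearest of these. Its promoter-proximal reads were 41.3 and 32 in WT and 94.4 and 105 in KO while its gene body reads fell, and its pausing index was 79.4 and 78.4 in WT and 333 and 429 in KO (log2 change 2.23, SE 0.38, adjusted p = 4.44e-06, limma). Its neighbour *Cyp2j6* had an index of 75.6, 105, 194 and 254 (1.31, SE 0.38, adjusted p = 0.0156), with promoter-proximal reads of 67.7 and 67 in WT and 107 and 108 in KO that were not called. *Cyp2f2* had an index of 1.19, 0.699, 3.85 and 2.71 (1.72, SE 0.52, adjusted p = 0.0183), from at most 15.9 promoter-proximal reads. The promoter call of *Cyp2j9* was lost without WT1, WT2 or KO2. The third *Cyp2j* gene, *Cyp2j5*, fell in both regions and kept an index of 165, 135, 122.6 and 190, a change of 0.03 that was not called (adjusted p = 0.945).

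The index fell for *Cyp3a59*, from 17.2 and 15.8 in WT to 4.76 and 5.50 in KO (log2 change -1.64, SE 0.46, adjusted p = 0.0113, limma). For *Cyp2b10* it was 22.4 and 12.6 in WT and 2.81 and 13.4 in KO, which overlap, and its call (-1.25, adjusted p = 0.0426) rests on at most 4.59 promoter-proximal reads per library. *Cyp3a11*, at 25.4, 27.6, 12.5 and 14.1, had lower values in KO and did not pass the test (-0.99, SE 0.43, adjusted p = 0.0915). Leaving out either WT library ended all 5 calls, and with scaling by the median of ratios within each region *Cyp2j9* alone was called.

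**Figure D4:**
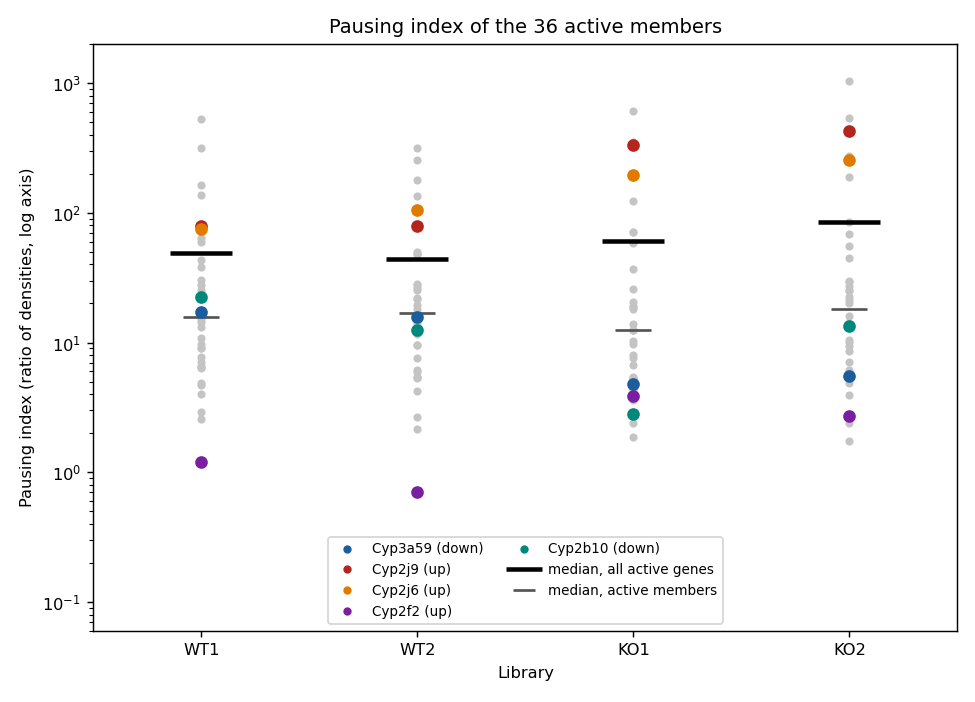
Pausing index (log axis) of the 36 active members in each library as points, with coloured points for the 5 members called and bars for the medians of all active genes and of active members. *Cyp2j9* and *Cyp2j6* stand higher in both KO libraries, *Cyp3a59* stands lower, and the members' median (12.5 to 18.1) is under that of all genes (44.3 to 85.0) in each library.

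Genes that serve or switch these enzymes were followed in the gene body by lists. *Por*, which gives electrons to every microsomal P450, fell from 17984 normalized reads in WT1 and 17635 in WT2 to 8908 in KO1 and 9424 in KO2 (log2 fold change -0.96, SE 0.11, adjusted p = 2.43e-07, limma). It was the 1 call among 6 electron donors, and their median was 0.20. Of 4 genes of heme breakdown, 0 were called by limma, edgeR or DESeq2, and 3 had an unadjusted p under 0.05 in limma.

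*Nr1i2*, which encodes PXR, fell from 6807 and 7833 in WT to 3168 and 3665 in KO (-1.10, SE 0.11, adjusted p = 5.11e-08, limma), while its target *Cyp3a11* rose. *Nr1i3*, which encodes CAR, had 948 and 858 in WT and 764 and 940 in KO and was not called (-0.09, adjusted p = 0.622). *Nr1i2* was the 1 call among 6 genes of the CAR and PXR pathway. *Ahr* had 5768, 5529, 4379 and 3999 and passed the test but not the size (-0.43, adjusted p = 0.00235), and 0 of 6 genes of the AHR pathway were called by limma, edgeR or DESeq2 (2 had an unadjusted p under 0.05 in limma).

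Of 19 liver factors known at P450 promoters, 13 fell and 2 rose, with a median of -0.90. *Onecut1* (-2.06), *Hnf4a* (-1.53) and the corepressor *Nr0b2* (-1.51) fell most. *Hnf4a* had 17104 and 17557 gene body reads in WT and 5615 and 6374 in KO. Of 10 genes through which growth hormone and sex steroids act on P450 genes, 5 fell, led by *Ghr* (-1.40), *Esr1* (-1.37) and *Socs2* (-1.25). Of 6 genes of the HDAC3 corepressor complex, 0 were called by limma, edgeR or DESeq2, and 2 had an unadjusted p under 0.05 in limma. Among the 24 active P450 genes of other families and names, 4 rose and 7 fell, with a median of -0.34.

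Markers of other cells moved with genotype too. Of 12 stellate cell markers 11 rose, their summed density going from 210 and 248 reads per kb in WT to 575 and 537 in KO, and 9 of 12 endothelial markers rose (1944 and 2166, then 3722 and 3451). Of 11 hepatocyte markers 5 fell (35225 and 38316, then 18527 and 18611), and 10 of 14 periportal markers fell while 1 rose (16189 and 18628, then 5657 and 5437), the largest falls being in *Sds* (-4.11), *Sdsl* (-2.50) and *Ass1* (-2.37). Of 14 pericentral markers 3 fell and 2 rose (1232 and 1242, then 1076 and 1103), the 2 being *Aldh1a1* (2.70) and *Oat* (1.59). Kupffer cell and leukocyte markers gave 1 rise among 11 (1148 and 1176, then 1488 and 1256), that of *Cybb*, which neither edgeR nor DESeq2 called, cholangiocyte markers 2 falls among 4 tested (93.6 and 92.9, then 56.5 and 55.3, with *Cldn4* at 0 in WT2 and KO1), and erythroid markers 1 rise and 4 falls among 5 (134 and 153, then 91.6 and 93.6). The summed density of the members was 8428 and 6571 in WT and 5871 and 6022 in KO. The part of cell make-up in the members' values was not tested, and fewer nuclei of a cell type and less transcription per nucleus cannot be told apart in these whole-liver libraries.

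**Figure D5:**
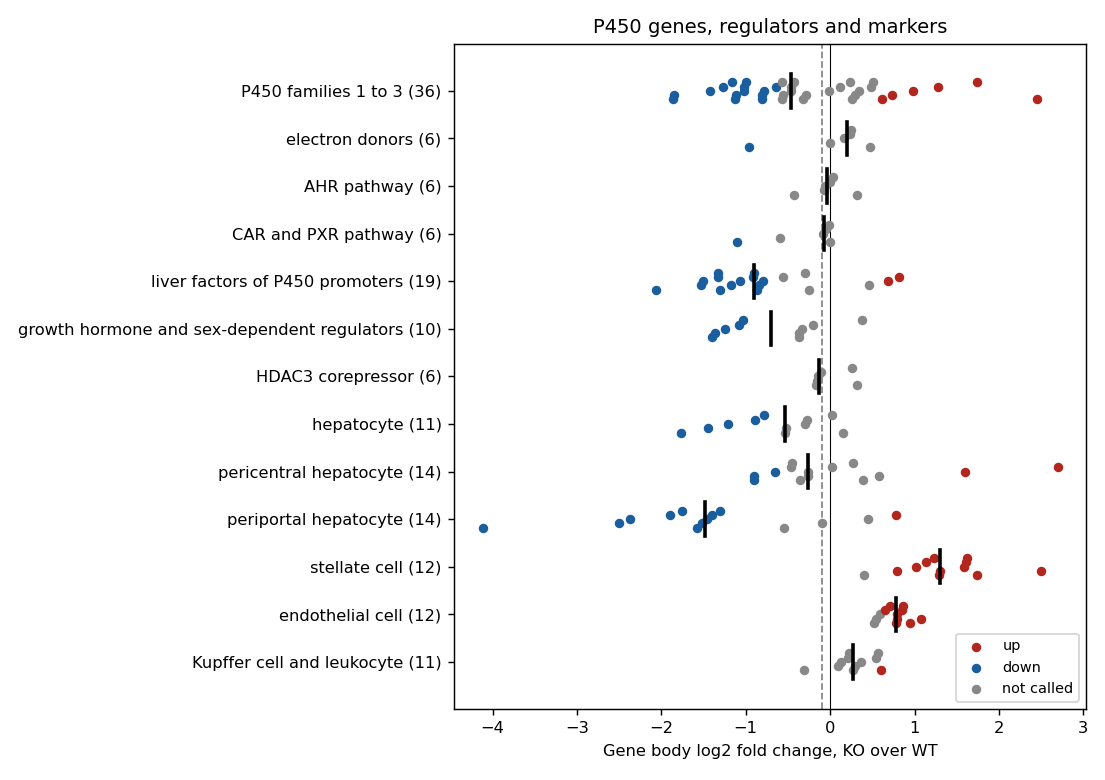
Gene body log2 fold change (KO over WT) of each tested gene in the P450 families and in the lists named, with a black bar at the list median, red and blue points for calls up and down, and a dashed line at the median of all active genes (-0.09). Liver factors (-0.90) and periportal markers (-1.49) have medians below that of the members (-0.46), and stellate (1.30) and endothelial markers (0.78) have medians above it.

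The WT libraries differed from each other in many of these genes. WT1 was above WT2 in the gene body for 29 of the 36 active members, with a median log2 ratio of 0.28, against -0.03 over all active genes. KO1 was above KO2 for 18 of 36, with a median of -0.01. *Cyp3a13* (2232 in WT1 and 892 in WT2) and *Cyp2c37* (3654 and 1668) had the widest gaps in that direction. The mix of sexes in the pools moved as well: *Xist*, transcribed in females, had 445 and 1135 gene body reads in WT and 688 and 196 in KO, which overlap, and the Y-linked *Uty* had 3292, 1133, 2165 and 2876. *Xist* was called down in KO by limma (log2 fold change -0.95, SE 0.36, adjusted p = 0.0406) and not by edgeR or DESeq2. Whether the mix of sexes had a part in the difference between WT libraries or in the calls was not tested.

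The deposited list of 2282 intergenic enhancers, called by the authors on all libraries pooled and given without values per library, held 6 whose closest gene was a member. That of *Cyp2b13* (chr7:26054226-26056627) lay 4.87 kb from the gene, those of *Cyp3a59* (chr5:146064137-146070013), *Cyp2d10* (chr15:82416457-82417997), *Cyp3a25* (chr5:146020501-146025758) and *Cyp2e1* (chr7:140745438-140750797) lay 9.25, 9.26, 10.9 and 13.0 kb away, and that of *Cyp3a16* (chr5:145620474-145636764) lay 151 kb away. The enhancer near *Cyp2d10* had 4 members within 50 kb, and that of *Cyp3a59* was the 1 of the 6 also listed in FANTOM5. Of these 6 genes, 1 rose, 2 fell and 3 were not called in the gene body, so an enhancer nearby went with each outcome.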

How the data were processed

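The authors used cutadapt for trimming and Bowtie2 for alignment to mm10, dropped reads on rRNA loci or with mapping quality under 10, and took counts over RefSeq transcripts with NRSA. Deposited values were counts for WT2, whose factor was 1, and normalized signal for the other libraries, that is, the authors' counts multiplied by a factor of 1.15 (WT1), 1.06 (KO1) or 1.52 (KO2). Densities were deposited as signal per bp. Dividing by the factors gave whole reads (within 0.01) for 100% of 41640 values per library. The share of reads in promoter-proximal windows was 10.3% and 9.38% in WT and 13.6% and 17.0% in KO. The enhancer list was deposited with positions and distances.

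Genes with promoter-proximal reads and gene body reads averaging above 4 per kb were active. Log2 values, with 1 added, were compared in limma 3.58.1 (trend, empirical Bayes, R 4.3.3) and adjusted by Benjamini-Hochberg over 12705 active genes, which stands in for the authors' DESeq2 test. P-values rest on the spread between pools of mice, which limma combined with a variance trend over all active genes. With 2 libraries per group they do not measure a single gene's spread alone. The procedure was tested on simulated reads, with log2 changes of 1 or 2 in size set in genes averaging at least 50 reads. In gene bodies, limma recovered 97% of the smaller and 100% of the larger changes. At promoters it recovered 1% and 69%, with 0 false calls in either region. A promoter that was not called may thus still have changed by such amounts. The simulation left 12505 genes unchanged and gave WT and KO the same spread. In the data 25.8% of promoters were called up. The chi-square per degree of freedom between replicate gene body reads was 24.3 in WT and 6.47 in KO. The simulated rates of recovery and of false calls may therefore not carry over to the data. Alternatives used edgeR 4.0.16 and DESeq2 1.42.0 on the whole reads, pseudocounts of 0.1 and 10, other filters, scalings, transcripts and thresholds, replicate blocks and each library left out. Tables and plots used Python 3.11.15 with pandas 2.3.3, numpy 2.4.6, scipy 1.17.1 and matplotlib 3.10.9.

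Open reading frames came from GENCODE M21 transcripts, 34 of 36 active members having one. Values are given per library for members called in a region with a mean of at least 50 reads there, and for the active member of each subfamily with the highest WT density. One list is not reported here. From the other lists, at most 3 called genes each are named, with *Hdac3*, *Por*, *Ahr*, *Nr1i2* and *Nr1i3*. *Xist*, *Uty* and members outside this rule were named after their values were seen. The members, lists and tests were chosen with earlier results of these data known.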

Additional observations from a re-analysis of the deposited data

How the results depend on the processing

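In the gene body, 6 members were called up and 14 down. Testing all 20642 symbols without the activity filter gave 2 and 6, and leaving out 1 library gave 4 to 8 up and 12 to 18 down. Every other alternative stayed within 1.5 times these counts, and no called member changed sign. At the promoter, 3 were called up and 8 down. Without the activity filter 0 and 0 were called, with median-of-ratios or TMM scaling within each region 1 and 14, and with median-of-ratios factors from gene bodies 5 down. DESeq2 called 1 up, and leaving out 1 library gave 0 to 3 up and 1 to 3 down. For the pausing index, 3 were called up and 2 down. This became 5 and 5 with a pseudocount of 10, 1 down with a pseudocount of 0.1 or an activity cutoff of 10, 0 and 0 without the activity filter, 1 and 0 with median-of-ratios scaling, 1 and 1 with TMM, and 0 to 4 up and 0 to 2 down without 1 library. The causes were not tested.

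Same-numbered WT and KO libraries share only a number. Their deviations correlated at -0.105 at promoters and 0.019 in gene bodies over 12705 genes, which is no sign of pairing. With the replicate number as a block, gene body calls stayed at 6 and 14, promoter calls were 3 up and 5 down, and pausing index calls 1 up and 0 down. For the pausing index, a crossed pairing that was added once the data had been seen gave 5 calls up and 4 down.

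No called value reversed. Some uncalled log2 fold changes changed sign. With 1 library left out, gene body values ran from -0.12 (without WT2) to 0.59 for *Cyp3a25* and from -0.24 to 0.060 (without KO1) for *Nr1i3*. Promoter values ran from -0.22 (without KO2) to 0.76 for *Cyp1a2*, -0.99 to 0.44 for *Cyp2b10* (0.17 without WT1, 0.44 without KO1), -1.70 to 0.038 (without WT2) for *Cyp2c40*, -1.65 to 0.65 for *Cyp2c55* (0.65 without WT1, 0.088 without KO1) and -1.15 to 0.096 (without WT1) for *Cyp3a25*. With either scaling within the region, the promoter values were -0.30 for *Cyp1a2*, -0.19 for *Cyp2r1* and -0.29 for *Cyp3a11*. Low promoter-proximal counts limit what can be seen there, and near-identical copies limit which gene a read is given to.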
